A study of Rattus norvegicus with 3 samples.

Results

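Aquaporins are membrane channels that let water, and in some members glycerol or other small solutes, cross cell membranes along their gradients. In salivary glands, acinar cells secrete salt into the lumen and water follows it, and Aqp5 in the apical membrane of acinar cells is the channel best known for that step. The family is commonly divided into water channels, aquaglyceroporins that also pass glycerol, and more distant members that lie mainly in membranes inside the cell. The genes described here are 10 of the aquaporins with a probe on the rat array: Aqp1, Aqp2, Aqp3, Aqp4, Aqp5, Aqp6, Aqp7, Aqp8, Aqp9 and Aqp11. They were chosen by name among the non-control probes, and each of the 10 genes has 1 probe, so 10 of 41012 probes (37 spots on each array) are described.

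Gene expression was measured on 3 one-colour Agilent arrays, 1 each for the sublingual, submandibular and parotid gland of normal, untreated male Wistar rats aged 10 weeks. The series speaks of 3 rats, and the sources used here do not say which animal or animals an array stands for. With 1 array per gland there are no replicates and no p-values, the number of arrays limits the precision, and the spread between animals is unknown. The errors below are those of the array alone, either from repeat spots of a probe or as the scanner software gives them for a single spot.

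Before any aquaporin was read, the gland labels were set against the glands' own products. All 10 serous acinar products with a probe stood at least 4-fold above both other arrays on the parotid array. Of 7 mucous acinar products, 5 were well above background on the sublingual array and 6 on the submandibular-labelled array, against 1 on the parotid array. None of 13 granular duct products, which mark the rat submandibular gland, stood at least 4-fold above both other arrays on the array labelled submandibular, where 8 of them were well above background. Levels on that array followed those on the sublingual array closely over 8898 genes (r = 0.991), more so than those on the parotid array (r = 0.920), and the sublingual and parotid arrays had r = 0.918. The array is therefore called submandibular-labelled throughout. Between 52.8% and 55.3% of probes were well above background on each array, and the median SD of repeat spots was between 0.077 and 0.084 on the log2 scale.

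Aqp2, Aqp5 and Aqp6 lie next to each other on chromosome 7 in that order. The probe of Aqp2 lies at chr7:138329410-138329469 in rn4, the build of the files, and the probe of Aqp5 at chr7:138340966-138341024, with 11496 bases between them. The Aqp6 probe, which the files place over chr7:138348926-138349685, follows 7901 bases after the Aqp5 probe. No probe of another gene on the array, and no other gene start in the RefSeq table, falls between them. These neighbours had 3 different patterns on the arrays, as the values below show: Aqp5 was well above background and lowest on the parotid array, Aqp2 was well above background and highest there, and Aqp6 was not well above background on any array. The 250 bases before the RefSeq start of each gene (assembly GRCr8, plus strand, written 5′ to 3′) are therefore shown together. Capitals mark CACGTG, the E-box letters, and a TATA box spelled TATAAA or TATATA, searched on both strands; the motifs were chosen after the sequences had been seen.
Aqp5, chr7:132601278-132601527: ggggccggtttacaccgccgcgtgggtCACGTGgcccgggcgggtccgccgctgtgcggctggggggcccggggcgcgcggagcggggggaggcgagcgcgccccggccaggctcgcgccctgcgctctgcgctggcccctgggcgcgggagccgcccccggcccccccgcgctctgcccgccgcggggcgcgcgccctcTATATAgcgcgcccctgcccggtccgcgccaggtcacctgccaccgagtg
Aqp2, chr7:132590036-132590285: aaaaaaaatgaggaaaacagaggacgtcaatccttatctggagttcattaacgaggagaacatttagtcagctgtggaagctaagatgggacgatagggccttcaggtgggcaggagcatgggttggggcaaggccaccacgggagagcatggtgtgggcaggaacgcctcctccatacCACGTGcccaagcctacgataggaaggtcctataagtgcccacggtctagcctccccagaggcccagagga
Aqp6, chr7:132610819-132611068: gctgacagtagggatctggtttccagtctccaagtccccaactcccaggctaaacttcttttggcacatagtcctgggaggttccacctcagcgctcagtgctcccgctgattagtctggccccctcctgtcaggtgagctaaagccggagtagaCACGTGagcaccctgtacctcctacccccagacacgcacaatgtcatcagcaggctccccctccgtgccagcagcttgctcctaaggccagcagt

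All 3 windows hold CACGTG, which starts 223 bases before the start of Aqp5, 71 before that of Aqp2 and 95 before that of Aqp6. The window of Aqp5 alone among these neighbours also holds a TATA box in a searched spelling, 50 bases before the start. Other spellings were not searched. The windows differ in base composition: 83.2% of bases are G or C before Aqp5, 54.4% before Aqp2 and 58.4% before Aqp6, against a median of 51.2% over 33469 RefSeq windows of the same length. Of the 9 aquaporins with such a window, 4 hold CACGTG (Aqp8 is the other, with a copy 161 and a copy 98 bases before its start), and 5.59% of all windows do. A TATA box in a searched spelling lies before 3 of the 9, at 30 bases for Aqp1, 38 for Aqp3 and 50 for Aqp5, and before 16.1% of all windows. A match is a match of letters only, and no factor's binding was measured.

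Of the 10 aquaporins, 5 (Aqp1, Aqp2, Aqp5, Aqp9 and Aqp11) were well above background on all 3 arrays, and the other 5 (Aqp3, Aqp4, Aqp6, Aqp7 and Aqp8) were well above background on none. A probe counts as well above background where the scanner software marks all its usable spots so. Over all 15169 genes, 63.6% were well above background on the sublingual and 62.6% on the submandibular-labelled array, against 64.3% on the parotid array. The aquaporins well above background were the same 5 genes in each gland. Signals below are the scanner software's processed signals. Levels are log2 signals relative to the 75th percentile of all probes on the array (a signal of 244 on the sublingual, 228 on the submandibular-labelled and 186 on the parotid array), and every difference between arrays is a difference of levels. Signals of different probes are not comparable as amounts of RNA.

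**Figure D1:**
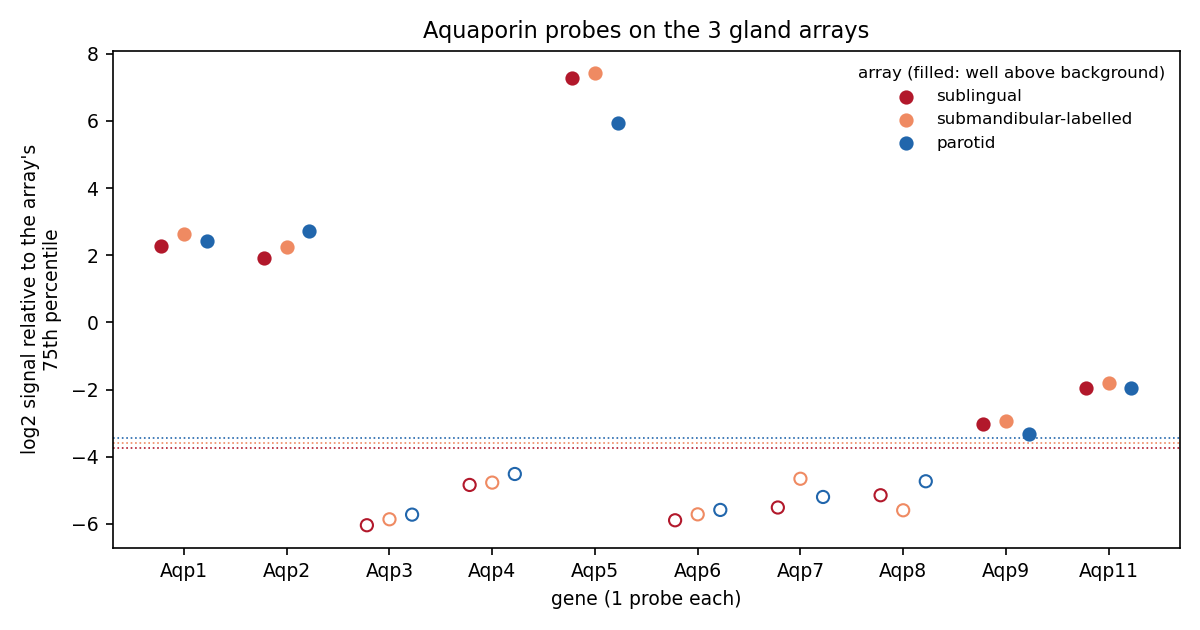
Level of each aquaporin probe on the 3 arrays, as log2 signal relative to the array's 75th percentile; filled points are well above background, open points are not, and dotted lines mark each array's lowest level well above background. Aqp1, Aqp2, Aqp5, Aqp9 and Aqp11 are filled on all 3 arrays and the other 5 are open on all 3; levels of different probes are not comparable as amounts.

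Aqp5, the water channel of the apical membrane of salivary acinar cells, was the only one of the 10 at least 2-fold apart between any glands on the scale used here. Its single spot had a signal of 38300 on the sublingual array and 39000 on the submandibular-labelled array, against 11300 on the parotid array, with a software error of 10% of the signal on each. The sublingual and submandibular-labelled arrays were both high and close together, and the parotid array was low. As levels these are 7.29 on the sublingual and 7.42 on the submandibular-labelled array, against 5.92 on the parotid array, where the spot was still well above background. In bulk tissue, fewer cells of a type and less RNA per cell cannot be told apart, for this gene as for all that follow.

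For submandibular-labelled against parotid the level of Aqp5 was 2.82-fold higher (log2 difference 1.49), and 2.44-fold to 3.24-fold within 1 software error of the difference. For sublingual against parotid it was 2.58-fold higher (log2 difference 1.37), and 2.24-fold to 2.98-fold within 1 error. Sublingual minus submandibular-labelled was -0.12, smaller than the software error of 0.20, so these arrays did not differ beyond the software error on this scale. Probes of similar signal with repeat spots had a smaller median SD, 0.025 on the sublingual and 0.032 on the submandibular-labelled array. Only 2 and 3 such probes exist, and Aqp5 itself has 1 spot. Over the alternatives the difference of these arrays ranged from -0.39, with quantile normalization and beyond the software error, to -0.09. Over the alternative scalings and background corrections the difference ranged from 1.29 to 1.80 for submandibular-labelled minus parotid and from 1.16 to 1.61 for sublingual minus parotid, so against the parotid array it stayed above 2-fold under each of them and reached 4-fold under none.

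Set against all genes, a difference of that size is not rare between these glands. Of 10224 genes compared between the submandibular-labelled and parotid arrays, 22.2% were at least 2-fold apart and 11.2% were apart with the submandibular-labelled array as the higher. Of the 5 aquaporins compared there, 1 was, Aqp5. Of 10232 genes compared between the sublingual and parotid arrays, 25.1% were at least 2-fold apart and 12.6% were apart with the sublingual array as the higher, and again 1 of 5 aquaporins, Aqp5, was. Between the sublingual and submandibular-labelled arrays 1.53% of 9817 genes were at least 2-fold apart, and 0 of 5 aquaporins. The shares of aquaporins thus lie near those of all genes. The difference of submandibular-labelled minus parotid was at least as far up as that of Aqp5 for 5.32% of genes, and that of sublingual minus parotid for 6.75%.

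**Figure D2:**
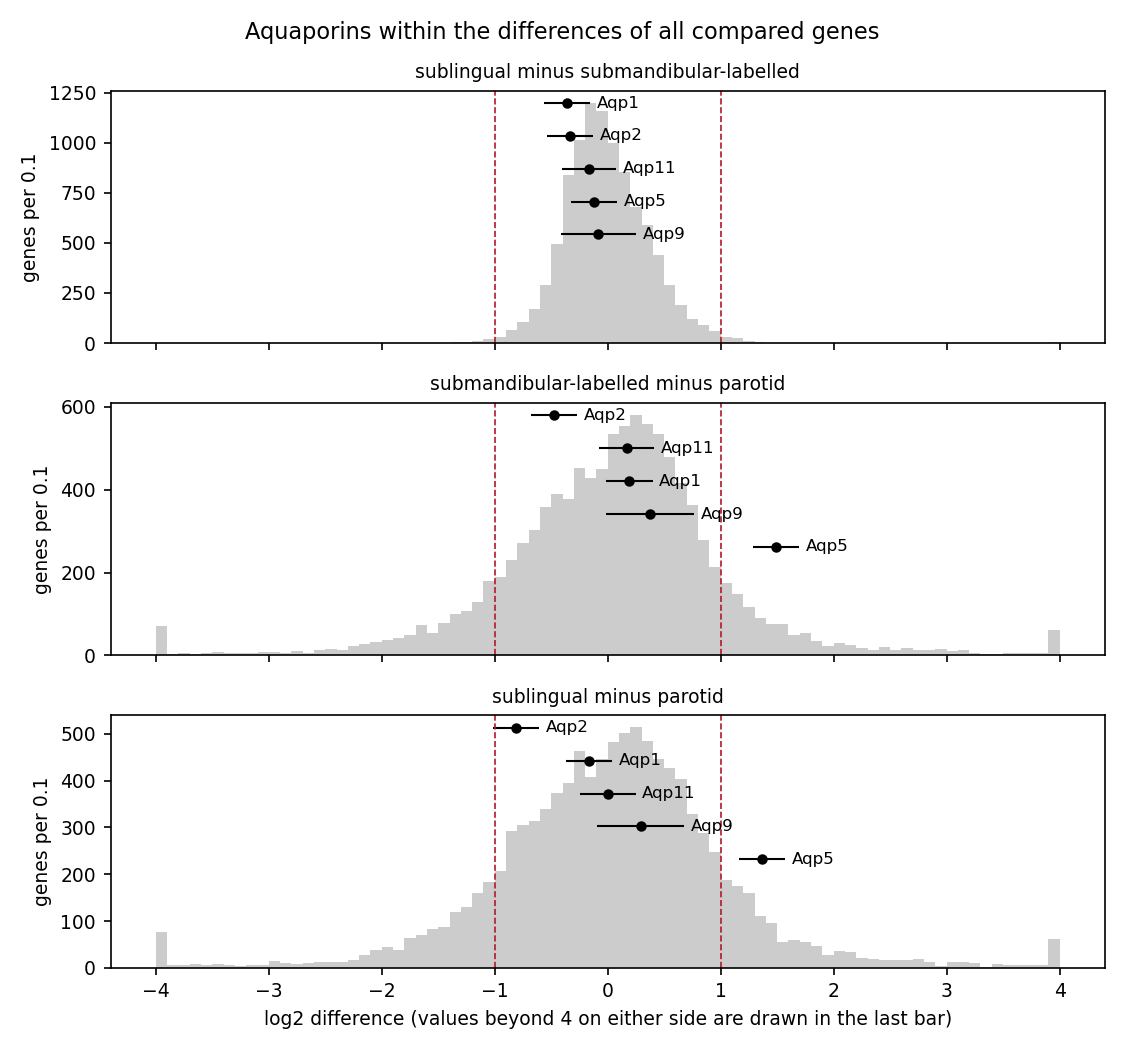
Log2 differences of the 5 aquaporins well above background (points, with bars of 1 software error of the difference) over the histogram of all genes compared, for sublingual minus submandibular-labelled, submandibular-labelled minus parotid, and sublingual minus parotid; dashed lines mark 2-fold and the vertical place of a point has no meaning. Aqp5 lies beyond the upper line in both comparisons with the parotid array, at 1.49 and 1.37, and none of the other 4 passes a line.

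The genes whose pattern over the 3 arrays lay nearest to that of Aqp5 were found among the 8898 genes well above background on all arrays, by the Euclidean distance between centred log2 levels. They were Cby1 (distance 0.0056), a regulator of Wnt signalling and ciliary assembly, Gadd45g (0.019), a stress-response gene, and Daam1 (0.030), a formin that acts on actin. Cby1, for example, exceeded its parotid level 2.60-fold on the sublingual and 2.83-fold on the submandibular-labelled array. With 3 points per gene such likeness is common: 260 genes lay within a distance of 0.25 of Aqp5.

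Aqp1, the water channel best known in red cells, capillary endothelium and the kidney's proximal tubule, was well above background in every gland and nearly level across them. Its probe (chr4:84110125-84110184) is spotted 10 times, with 9 usable spots on each array. Their geometric mean signal was 1175 on the sublingual array (spots 1100 to 1230), 1411 on the submandibular-labelled array (1340 to 1460), against 1007 on the parotid array (973 to 1060). After scaling the levels were 2.27, 2.63 and 2.44, with an SD over spots of 0.06, 0.04 and 0.04 in that order of arrays. The submandibular-labelled array was highest, and the scaled spots of no pair of arrays overlapped.

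The level of Aqp1 was lower on the sublingual than on the submandibular-labelled array by a log2 difference of -0.36 (0.778-fold), a direction shared by all 9 features at the same place on both arrays and by every scaling and background correction tried, from -0.43 to -0.32. Against the parotid array the differences were smaller. Submandibular-labelled minus parotid was 0.19, but -0.05 with quantile normalization and -0.01 when scaled to probes well above background. Sublingual minus parotid was -0.17, but 0.07 when scaled to the array medians. The order of the parotid array and the others for Aqp1 thus depends on the scaling, although on the scale of the 75th percentile no spots overlap. Both differences from the parotid array were smaller than their software error of 0.20. Sublingual minus submandibular-labelled was larger than its error, also 0.20. Repeat spots of a probe share 1 array and its scaling, so their agreement does not replicate a difference between glands.

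Of the 12 endothelial markers, 8 were well above background on the sublingual and 8 on the submandibular-labelled array, against 11 on the parotid array, and Tek on none. Their summed scaled signal was 19.6 on the sublingual and 16.6 on the submandibular-labelled array, against 29.9 on the parotid array. In sublingual minus parotid 6 of 11 were at least 2-fold lower and 0 higher, with a median of -1.04 against 0.06 over all genes compared. In submandibular-labelled minus parotid 1 of 11 was at least 2-fold lower, with a median of -0.70 against 0.10. Tie1, an endothelial receptor, was lower for sublingual against parotid by at least 2.47-fold, the endothelial cadherin Cdh5 was 2.07-fold lower, and Flt1, a VEGF receptor, at least 2.16-fold lower. Over the alternatives these log2 differences went as small as -0.58, -0.33 and -0.13 in that order. The sublingual level of Cdh5 was -3.51, near the lowest level well above background. The median of the endothelial markers thus lay further below 0 than the -0.17 of Aqp1 in sublingual minus parotid. In sublingual minus submandibular-labelled 0 of 8 were at least 2-fold apart. Their median there was -0.34, beside -0.36 for Aqp1 and -0.05 over all genes compared, although their summed signal was higher on the sublingual array. The part of these markers in the level of Aqp1 was not tested.

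Red cells, which carry Aqp1, were read from 6 erythroid markers with a probe. Of these, 4 were well above background on the sublingual and 3 on the submandibular-labelled array, against 5 on the parotid array, with summed scaled signals of 5.96, 5.37 and 6.86. The markers went both ways: Ahsp, which stabilises alpha globin, exceeded its parotid level 6.49-fold on the sublingual and 4.70-fold on the submandibular-labelled array. The anion exchanger Slc4a1 and the ammonia channel Rhag passed background in the parotid alone. On the sublingual array Slc4a1 was 2.70-fold lower and Rhag at least 2.31-fold lower. Over the alternatives these log2 differences went as small as -0.54 and -0.13. Over the list, 2 of 6 were at least 2-fold higher and 3 lower in sublingual minus parotid (median -0.87), and 1 of 5 higher and 2 lower in submandibular-labelled minus parotid (median -0.80). Their part in the level of Aqp1 was not tested.

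Aqp2, the vasopressin-regulated water channel of the kidney collecting duct, was also well above background on all 3 arrays, and was highest on the parotid array, where Aqp5 was lowest. The sequence of its probe was not used here, so how specific the probe is to Aqp2 was not tested, for each of its values below. Its probe is spotted 10 times, with 10 usable spots on the sublingual, 9 on the submandibular-labelled and 10 on the parotid array. Their geometric mean signal was 916 on the sublingual array (spots 818 to 1050), 1081 on the submandibular-labelled array (967 to 1260), against 1228 on the parotid array (1130 to 1430). Levels were 1.91, 2.25 and 2.72 in that order of arrays, with an SD over spots of 0.11 on each. The parotid array was highest and the sublingual array lowest, and the scaled spots of the parotid array overlapped those of neither other array, while those of the sublingual and submandibular-labelled arrays overlapped.

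Sublingual minus parotid was -0.81 for Aqp2 (0.569-fold), and all 10 features at the same place on both arrays were lower on the sublingual array. Submandibular-labelled minus parotid was -0.48 and sublingual minus submandibular-labelled -0.34, and in each all 9 features present on both arrays were lower on the array named first. No alternative turned any of these directions: the ranges were -1.06 to -0.57, -0.72 to -0.17 and -0.41 to -0.29. The difference of sublingual minus parotid passed 2-fold with quantile normalization alone among them, and 16.8% of all genes were at least as far down in that comparison. The software error of each Aqp2 difference was 0.20. As for Aqp1, the features are repeat spots of 1 probe, and their agreement does not replicate a difference between glands.

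**Figure D3:**
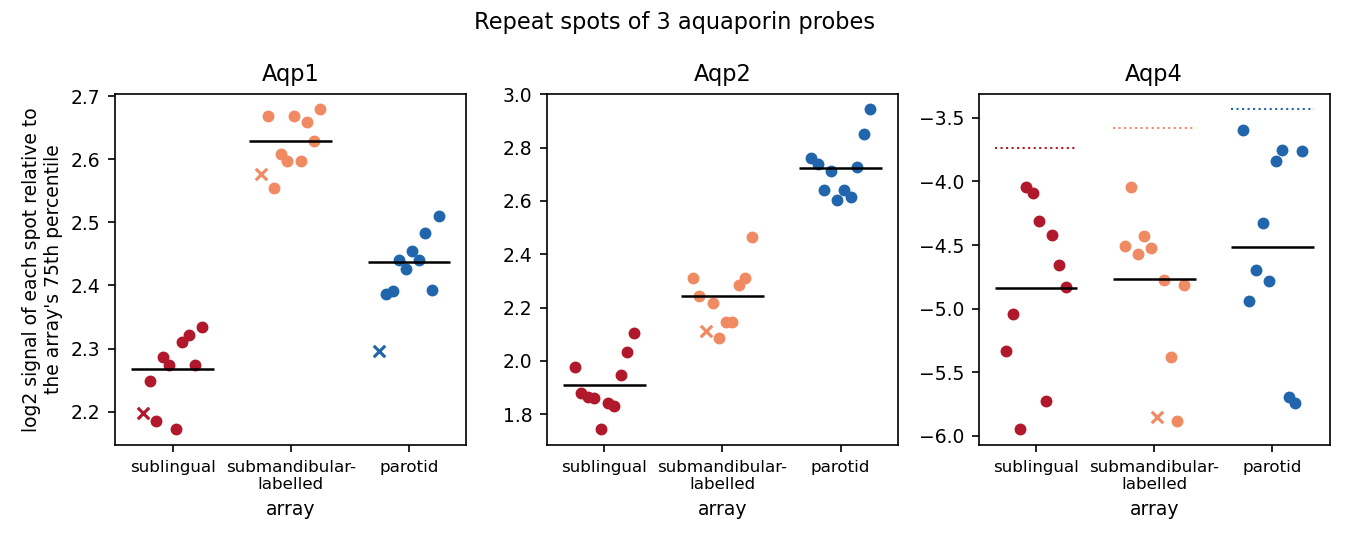
Level of every spot of the probes of Aqp1, Aqp2 and Aqp4, which are spotted 10 times on each array, as log2 signal relative to the array's 75th percentile, with a separate vertical scale for each gene; horizontal lines are means, crosses are spots with an outlier flag that were left out, and dotted lines mark the lowest level well above background. Spots of Aqp1 and Aqp2 lie within narrow bands (SD 0.04 to 0.11), and those of Aqp4 spread more widely (SD 0.55 to 0.79), all of them below the dotted lines.

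Dividing an array by 1 number moves all its genes together, so a ratio of 2 aquaporins within an array does not depend on that number. The ratio of Aqp5 to Aqp2 was 4.54-fold that of the parotid array on the sublingual array and 3.92-fold on the submandibular-labelled array. The ratio of Aqp5 to Aqp1 was 2.91-fold and 2.46-fold higher, and that of Aqp1 to Aqp2 1.56-fold and 1.59-fold higher, in the same order of arrays. Between the sublingual and submandibular-labelled arrays the Aqp5 to Aqp2 ratio differed 1.16-fold. The differences of the neighbouring genes Aqp5 and Aqp2 from the parotid array were therefore 2.18 log2 units apart for sublingual and 1.97 for submandibular-labelled. A ratio alone does not give the direction of either gene. On the scaled levels Aqp5 was higher and Aqp2 lower than on the parotid array, under every scaling and background correction tried.

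Beside Aqp2 stand 8 kidney tubule and collecting duct markers, a list made after the aquaporin values had been seen. Most of them mark other kidney segments than the collecting duct cells that carry Aqp2. Of these, 4 were well above background on all 3 arrays: Avpr2, the vasopressin receptor that controls Aqp2 in the kidney, Hsd11b2, the glucocorticoid-inactivating enzyme of salt-handling epithelia, Calb1, a calcium-binding protein, and Slc5a2, a glucose carrier. The other 4, Umod, Slc12a1, Slc12a3 and Slc34a1, were well above background on none. Avpr2 had a level of -3.46 on the sublingual and -2.97 on the submandibular-labelled array, against -2.72 on the parotid array. Its sublingual level was near the lowest level well above background. None of the 4 was at least 2-fold apart in any comparison, with medians of -0.46 for sublingual minus parotid and -0.34 for submandibular-labelled minus parotid. For Avpr2, Hsd11b2 and Slc5a2, the 3 with the largest differences, the direction of submandibular-labelled minus parotid turned under at least 1 alternative, as did that of Slc5a2 for sublingual minus parotid. Their summed scaled signal over all 8 was 39.6 on the sublingual and 47.7 on the submandibular-labelled array, against 59.1 on the parotid array.

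Aqp4, the water channel of astrocyte end-feet and skeletal muscle fibres, was well above background on no array. None of its usable spots, 10 on the sublingual and 9 on the submandibular-labelled array against 10 on the parotid array (probe at chr18:6628415-6628474), was marked well above background. Their geometric mean signals were 8.52, 8.36 and 8.15 in that order, and the spots ranged from 3.96 to 14.8, 3.87 to 13.8 and 3.47 to 15.4. By a separate flag the software marked 9, 8 and 8 of these spots positive and significant, in the same order. The ranges of the spots overlap on all 3 arrays, so no difference was detectable, and no fold is given.

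Cells that carry Aqp4 elsewhere had some of their markers above background. Of 10 skeletal muscle markers, 6 were well above background on the sublingual and 6 on the submandibular-labelled array, against 4 on the parotid array, while Ckm, Myh4, Tnnc2 and Pvalb, products of mature fibres, were above it on none. Muscle markers went both ways, with 3 of 6 at least 2-fold higher and 1 lower in sublingual minus parotid (median 0.56, summed scaled signals 5.16 against 7.63) and 2 higher and 2 lower in submandibular-labelled minus parotid (median 0.17, 6.01 against 7.63). The fibre actin Acta1 was 4.03-fold and 5.78-fold higher and the myosin Myh2 at least 6.78-fold and 7.54-fold higher on the sublingual and submandibular-labelled arrays, while the filament protein Des was 5.34-fold and 5.31-fold lower. Of 9 glial and nerve markers, 4 were above background on the sublingual and 4 on the submandibular-labelled array, against 6 on the parotid array, and the astrocyte filament Gfap on none. In sublingual minus parotid 3 of 6 glial and nerve markers were at least 2-fold lower and 0 higher (median -1.35), and in submandibular-labelled minus parotid 5 of 6 were lower and 0 higher (median -1.47), while 1 of the 6 lay above 0 in both (0.18 and 0.34), with summed scaled signals of 10.14 and 12.57 against 28.34. Sox10, a factor of glia, was 4.29-fold and 2.82-fold lower, and the neurotrophin receptor Ngfr 4.09-fold and 3.08-fold lower, in the same order. Ngfr was not well above background on the sublingual or submandibular-labelled array. Its log2 differences went as small as -0.86 and -0.76 over the alternatives.

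Aqp3, Aqp7 and Aqp9 are the aquaglyceroporins of the list, and only Aqp9 was well above background. Aqp9, known from hepatocytes and leukocytes, has 1 spot (chr8:75611562-75611621) with a signal of 30.0 on the sublingual and 29.7 on the submandibular-labelled array, against 18.7 on the parotid array. The software errors were 4.83, 4.94 and 4.03, and the lowest signals of any probe well above background were 18.3, 19.1 and 17.2, so the parotid value lies just above that limit. At levels of -3.02, -2.94 and -3.31, submandibular-labelled minus parotid was 0.37, smaller than its software error of 0.39. Sublingual minus parotid was 0.29, smaller than its error of 0.39, and -0.18 with normexp background correction. Probes of similar signal with repeat spots had a median SD between 0.22 and 0.38, so on this scale no difference of Aqp9 exceeded its error. Against the parotid array it did under other settings, reaching 0.71 for submandibular-labelled and 0.57 for sublingual with quantile normalization, so the size of the difference is not settled by these arrays.

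Leukocyte markers were lower on both other arrays than on the parotid array. Of 8 with a probe, 4 were well above background on the sublingual and 4 on the submandibular-labelled array, against 6 on the parotid array, with Cd3e and Cd79b, the T and B cell receptor components, above it on none. In each comparison with the parotid array 5 of 6 were at least 2-fold lower, with medians of -1.34 for sublingual and -1.21 for submandibular-labelled, and summed scaled signals of 29.3 and 32.5 against 84.0. The integrin Itgam was at least 2.56-fold and 2.29-fold lower, the antibody joining chain Jchain 3.43-fold and 4.58-fold, and Cd74, the invariant chain of antigen presentation, 3.42-fold and 2.66-fold, in the same order. Their part in the level of Aqp9 was not tested.

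Aqp3, the glycerol and water channel of basolateral membranes in skin and collecting duct, gave no measured signal. Its spot (chr5:58501847-58501906) had values of 3.71 on the sublingual, 3.92 on the submandibular-labelled and 3.52 on the parotid array. All 3 are surrogates, values that the software puts in place of a signal too low to measure, so they have no order.

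Aqp7, the channel through which adipocytes release glycerol, was well above background on no array either. Its spot (chr5:58433937-58433996) had a surrogate of 5.35 on the sublingual array, a signal of 9.05 on the submandibular-labelled array with an error of 5.61, and a surrogate of 5.07 on the parotid array. Only the submandibular-labelled value is thus a measured one. The probes of Aqp3 and Aqp7 lie 67850 bases apart on chromosome 5, and neither neighbour was well above background in any gland.

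Of 9 adipocyte markers, 5 were well above background on the sublingual and 4 on the submandibular-labelled array, against 5 on the parotid array. Plin1, which coats the lipid droplet, Lep, Cidec and Pparg were above it on none. Those compared were mostly lower than on the parotid array, with 3 of 5 at least 2-fold lower and 1 higher in sublingual minus parotid (median -1.41) and 4 of 5 lower and 1 higher in submandibular-labelled minus parotid (median -1.74). Summed scaled signals were 8.77 and 7.84 against 11.7. Fabp4, the fatty acid binding protein of adipocytes, was 3.18-fold lower on the sublingual and 3.33-fold lower on the submandibular-labelled array, the adipocyte hormone Adipoq was 2.66-fold and 4.06-fold lower, and Retn, another hormone of fat, 2.78-fold lower and at least 7.89-fold lower. These markers were above background on the parotid array, where Aqp7 was not.

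The enzymes that make and use glycerol were mostly above background, as was Aqp9 among the channels, while Aqp3 and Aqp7 were not. Of 9 glycerol handling genes, 8 were well above background on every array, all but Gpd1, the glycerol phosphate dehydrogenase. Against the parotid array 0 of 8 were at least 2-fold apart on the sublingual array (median 0.27) and 1 of 8 was higher on the submandibular-labelled array (median 0.42). That gene was Dgat2, which makes triglyceride, 2.28-fold higher there and 1.87-fold higher on the sublingual array. Lipe, a lipase that releases glycerol, was 1.88-fold and 1.24-fold higher, and Dgat1 1.80-fold and 1.67-fold higher, in the same order. Over the alternatives the log2 difference of Dgat2 went as low as -0.18 and -0.31 in these comparisons, and Lipe turned direction in the comparison with the sublingual array (-0.01 to 0.55), so their order is not settled by these arrays.

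Aqp11, Aqp6 and Aqp8 are the members known from membranes inside the cell or from other tissues, and only Aqp11 was well above background. Aqp11, a channel of the endoplasmic reticulum that kidney tubules need, has 1 spot (chr1:154974018-154974077) with a signal of 62.9 on the sublingual and 65.9 on the submandibular-labelled array, against 47.9 on the parotid array. The software errors were 7.30, 7.65 and 5.93, and the levels -1.96, -1.79 and -1.96. The 3 levels lie together, sublingual minus parotid was 0.00 and submandibular-labelled minus parotid 0.17, against an error of 0.24 in both. Their directions turn with the scaling or background correction (-0.22 to 0.24 and -0.15 to 0.48), so Aqp11 did not differ detectably between the glands.

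Aqp6, an anion-passing channel of vesicles in kidney intercalated cells, had surrogate values on all 3 arrays, 4.11 on the sublingual, 4.34 on the submandibular-labelled and 3.88 on the parotid array. No signal was thus measured for it in any gland. Aqp8, a channel that also passes hydrogen peroxide and ammonia, known from pancreas and colon, was near the limit as well (its probe is placed over chr1:182336005-182336751). Its spot had a signal of 6.89 on the sublingual array with an error of 4.62, a surrogate of 4.72 on the submandibular-labelled array and a signal of 7.01 on the parotid array with an error of 4.38. The signals on the sublingual and parotid arrays are close together, and neither was well above background.

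Of the family outside these 10 genes, Mip and Aqp12a had a probe. Mip, the lens fibre channel also called aquaporin 0, was well above background on the submandibular-labelled array only, with levels of -4.15 on the sublingual, -2.58 on the submandibular-labelled and -3.24 on the parotid array. Mip was lower by at least 2.23-fold for sublingual against submandibular-labelled, but over the alternatives this log2 difference went as small as -0.36. It was 1.58-fold higher for submandibular-labelled against parotid, and this log2 difference ranged from 0.46 to 0.97. Aqp12a, a channel known from pancreatic acinar cells, was well above background on all 3, with levels of 0.78 on the sublingual and 0.83 on the submandibular-labelled array, against 1.76 on the parotid array. Compared with the parotid array its level was 1.98-fold lower on the sublingual and 1.91-fold lower on the submandibular-labelled array, the same direction as Aqp2 and opposite to Aqp5. Aqp10 was not analysed here.

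Fluid secretion starts with calcium release after receptor stimulation, which opens channels for chloride and potassium, and carriers at the base of the cell refill the chloride. The genes of the transport step went both ways. Of 20 fluid and ion transport genes compared, 4 were at least 2-fold higher and 4 lower in submandibular-labelled minus parotid (median -0.35 against 0.10 over all genes compared), and 3 higher and 6 lower in sublingual minus parotid (median -0.41 against 0.06). Between the sublingual and submandibular-labelled arrays 0 of 19 were.

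Ano1, the calcium-activated chloride channel of the apical membrane, had levels of -1.27 on the sublingual and -0.90 on the submandibular-labelled array, against 0.58 on the parotid array, 3.62-fold and 2.80-fold lower. Slc4a4, a sodium bicarbonate carrier, was 3.33-fold and 2.11-fold lower, and Cftr, another chloride channel, 3.01-fold and 1.88-fold lower, in the same order. Over the alternatives these log2 differences went as small as -0.77 and -0.64 for Slc4a4, and -0.59 and -0.26 for Cftr. The sublingual level of Cftr was -3.52, near the lowest level well above background. Slc12a2, the carrier that loads chloride at the base of acinar cells, was 2.51-fold and 2.63-fold lower. Other genes were higher: Kcnma1, a potassium channel of acinar cells, had levels of 0.01 on the sublingual and 0.18 on the submandibular-labelled array, against -0.99 on the parotid array. Slc9a2, a sodium-proton exchanger, was 2.70-fold and 2.69-fold higher in the same order. Slc12a2, Kcnma1 and Slc9a2 were picked after their values had been seen. Genes of the transport step thus lay on either side of the parotid array, while Aqp5 was higher on both arrays.

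**Figure D4:**
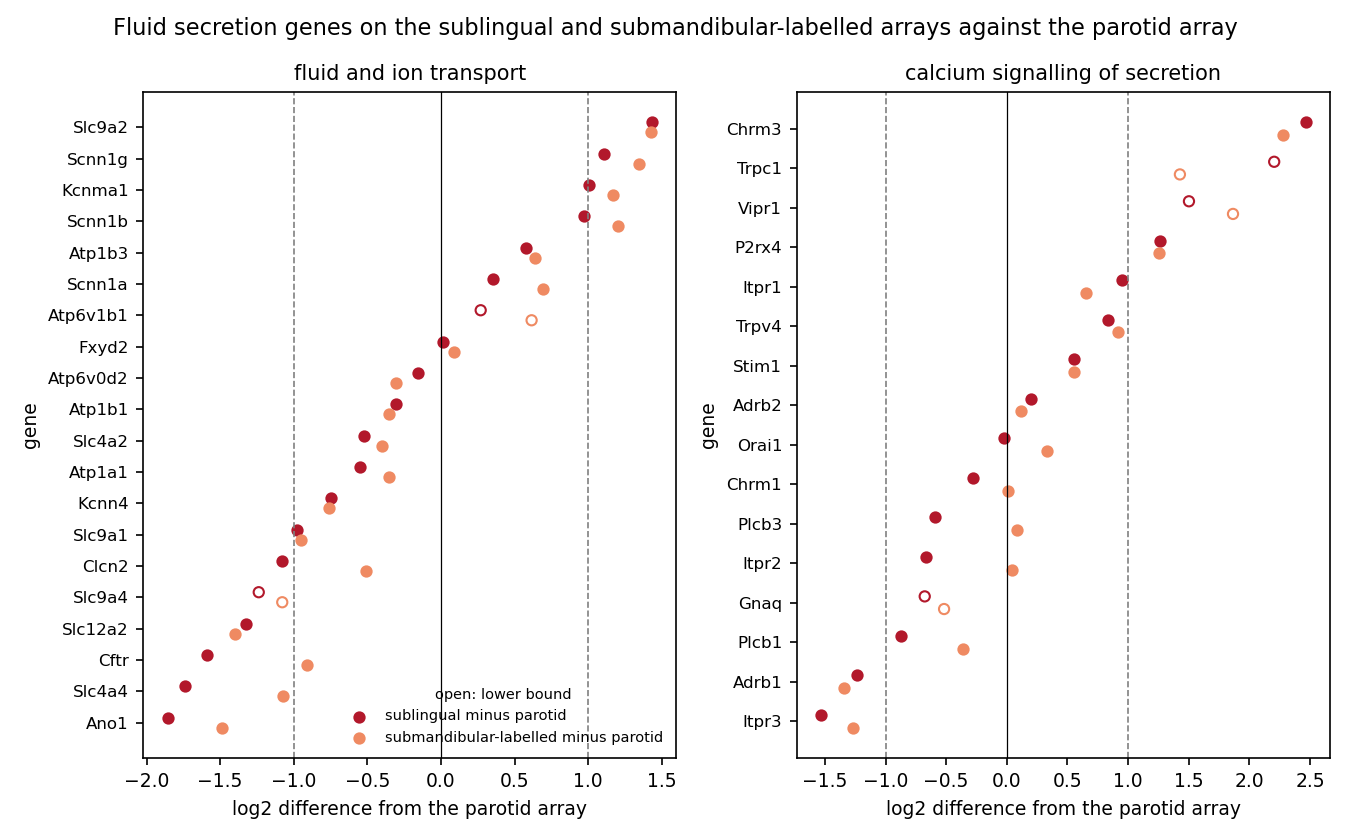
Log2 difference from the parotid array for fluid and ion transport genes (left) and calcium signalling genes (right) with a value in both comparisons, on the sublingual array (dark red) and the submandibular-labelled array (orange); open points are lower bounds and dashed lines mark 2-fold. Ano1, Slc4a4, Cftr and Slc12a2 lie left of 0 in both comparisons, and Chrm3 lies farthest right.

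Calcium signalling genes went both ways. In submandibular-labelled minus parotid 4 of 16 were at least 2-fold higher and 2 lower (median 0.22), and in sublingual minus parotid 4 were higher and 2 lower (median 0.09), with 0 of 15 apart between the sublingual and submandibular-labelled arrays. Chrm3, the muscarinic receptor through which acetylcholine starts fluid secretion, had levels of 4.80 on the sublingual and 4.62 on the submandibular-labelled array, against 2.34 on the parotid array, 5.51-fold and 4.84-fold higher. The calcium-permeable channel Trpc1 was higher by bounds of at least 4.61-fold and 2.69-fold, and Vipr1, a receptor for vasoactive intestinal peptide, by at least 2.83-fold and 3.64-fold. Over the alternatives their log2 differences went as low as 0.88 and 0.54 for Trpc1, and 0.72 and 0.91 for Vipr1. Chrm3 was thus higher on the same arrays as Aqp5, and whether the genes are linked was not tested.

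The genes that bind Aqp5 or move vesicles to the apical membrane were mostly within 2-fold. Of 12 compared, 1 was at least 2-fold higher and 1 lower in sublingual minus parotid (median 0.20), 0 higher and 1 lower in submandibular-labelled minus parotid (median 0.32), and 0 apart between the sublingual and submandibular-labelled arrays. The gene lower in both was Pip, a secreted protein reported in mouse to bind Aqp5, which had levels of 1.47 on the sublingual and 1.62 on the submandibular-labelled array, against 10.33 on the parotid array. Pip is also one of the serous products that mark the parotid array, all 10 of which were lower in both comparisons. Rab11a, a GTPase of recycling vesicles, exceeded its parotid level 2.18-fold on the sublingual and 1.79-fold on the submandibular-labelled array, and Akap7, an anchor of protein kinase A, 1.17-fold and 1.94-fold. The direction of Akap7 turned under at least 1 alternative (-0.64 to 0.46 for sublingual and -0.38 to 1.27 for submandibular-labelled, each minus parotid), and that of Rab11a under none.

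Markers of other cells of the gland also moved with Aqp5. Myoepithelial cells are the contractile cells around acini, and of their 7 markers with a probe 6 were well above background on each array. All 6 were at least 2-fold higher in submandibular-labelled minus parotid (median 1.62) and 5 of 6 in sublingual minus parotid (median 1.41), with summed scaled signals of 82.5 and 66.9 against 27.1. Cnn1, Mylk and Tagln belong to the contractile machinery. Cnn1 was 9.18-fold and 6.48-fold higher, Mylk 4.38-fold and 3.09-fold and Tagln 3.19-fold and 2.42-fold, in the same order of arrays. Oxtr was above background on none. Their part in the level of Aqp5 was not tested.

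Of 10 duct markers, 9 were well above background on the sublingual, 10 on the submandibular-labelled and 8 on the parotid array. In sublingual minus parotid 3 of 9 were at least 2-fold higher and 2 lower (median 0.29), in submandibular-labelled minus parotid 3 of 10 were higher and 0 lower (median 0.43), and summed scaled signals were 856 and 922 against 487. Cldn4, a tight junction protein, was 4.02-fold and 3.68-fold higher, Krt7, a duct keratin, 2.57-fold and 3.18-fold higher, and Elf5, a transcription factor of secretory epithelia, 3.23-fold and 1.45-fold lower, on the sublingual and submandibular-labelled arrays. The acinar products differed by far more than Aqp5: all 10 serous products were lower in both comparisons (median -9.09 and -9.30), and 5 of 5 mucous products were higher on the sublingual (median 8.28) and 6 of 6 on the submandibular-labelled array (median 6.93). The gel-forming mucin Muc19 was higher by at least 9041-fold and 9628-fold in the same order, followed by Agr2 and Bpifb2, and Dnase1, Prp2 and Cst5 were the serous products with the largest difference in any comparison. Granular duct products were 1 of 10 higher and 2 lower in sublingual minus parotid (median -0.55) and 1 of 11 higher and 1 lower in submandibular-labelled minus parotid (median -0.01), with Smr3a, Smr3b and Tgfa the farthest apart. Smr3a was the product far higher on the parotid array than on both others. Aqp5, well above background on all 3 arrays, was thus measured both where serous and where mucous products were high, and the part of each cell type in its level was not tested.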

How the data were processed

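RNA of 3 rat salivary glands was measured on 3 arrays, 1 per gland, grouped by the gland in their labels. Per the labels' protocols, about 30 mg of gland and 500 ng of total RNA were used and the label was Cy3. The deposited files give an intensity for each spot (processed signal and its error, mean pixel signal, background around the spot). Agilent Feature Extraction 10.1.1.1 made them under protocol GE1-v5_10_Apr08, for array design 014879 with rn4 coordinates, per the file headers. All arrays lay on 1 slide, so gland and place on the slide cannot be told apart. Multiplicative detrending was on and low signals were replaced by surrogates, per the file headers. Other deposited columns are flags per spot (well above background, positive and significant, outlier, saturated). A table for the whole series gives the authors' linear ratio per spot; the sources used here do not describe how it was made. It equals the processed signal divided by 250 (sublingual), 236 (submandibular-labelled) and 190 (parotid), to within a log2 range of 0.0142 for signals over 1000, so its scale and direction are known and no gene was centred. Its column medians are 0.128, 0.122 and 0.152.

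Levels are log2 processed signals from which the array's 75th percentile was subtracted. Control spots and outlier-flagged spots (73, 79 and 68 for sublingual, submandibular-labelled and parotid) were left out, spots of a probe were averaged on the log2 scale, and no spot was saturated. Of 41012 probes, 19379 matched 15173 genes of RefSeq's GRCr8 table, used for names and neighbours: 10768 by accession, 5055 by symbol, 3388 by older symbol and 168 by another accession; 15169 had a level. Promoters are RefSeq's, with 10 windows for 9 of the aquaporins. A gene with several probes was represented by the one with the highest mean level. A gene was compared where at least 1 side was well above background. Where the other was not, its level was set to the higher of its own and the lowest level well above background (-3.74, -3.58 and -3.43). Where that lowest level was used, the fold is a bound on the main scale, written "at least", and several bounds were smaller under the alternatives. Where its own level was used, the fold is a difference from a level not well above background, written without "at least". Genes whose bound was under 1 were not compared. Counts use 2-fold. No test was made, with 1 array per gland. The software error of a difference combines the errors of both arrays, and the depth of array data has no counts behind it.

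The aquaporins and lists were chosen with earlier results of these data known. The text names all aquaporins, from each gene list the 3 genes with the largest difference between any pair of arrays (bounds included), and the 3 genes nearest to Aqp5, with relatives named in full; other genes named were chosen after their values were seen. A gene that this rule names is not reported here. Alternatives were normexp (offset 50, limma 3.58.1, R 4.3.3), other scalings, the deposited ratios, the median of a gene's probes, another background flag, kept outliers, no bounds, and thresholds of 1.5-fold and 4-fold. The calling step was tested on simulated data. Tools were Python 3.11.15, numpy 2.4.6, pandas 2.3.3, scipy 1.17.1 and matplotlib 3.10.9.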

Additional observations from a re-analysis of the deposited data

How the results depend on the processing

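The count of aquaporins at least 2-fold apart between the sublingual and submandibular-labelled arrays was 0 under every alternative. Against the parotid array it was 1, Aqp5, on both arrays under all but these: at 4-fold it was 0 in both comparisons, and in sublingual minus parotid it was 2 at 1.5-fold and 2 with quantile normalization, Aqp2 being added. The same 5 aquaporins passed on all 3 arrays at once under every flag tried. Counted on each array by itself, the positive and significant flag gave 6. It added Aqp8 on the sublingual and parotid arrays and Aqp7 on the submandibular-labelled array. Counts over all genes moved more. With normexp 0.655% of genes were at least 2-fold apart in sublingual minus submandibular-labelled, 12.5% in submandibular-labelled minus parotid and 14.6% in sublingual minus parotid; with the positive and significant flag these shares were 8.42%, 28.5% and 30.5%. At 4-fold they were 0.204%, 5.71% and 5.99%, and at 1.5-fold 10.7%, 45.5% and 49.3%. Centring on the array median moved the median gene well above background to 0.45 in submandibular-labelled minus parotid and 0.35 in sublingual minus parotid, against 0.14 and 0.11, and the 75th percentile of probes above background moved it to -0.06 and -0.07. No paired analysis was possible because each gland has 1 array. Signals near background limit Aqp9, and the 5 aquaporins not well above background were given no fold.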
